A study of Mus musculus with 15 samples.

Results

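Cytochrome P450 genes were taken from the mammary transcriptomes as every gene whose name is made of Cyp, a family number, a subfamily letter and a gene number, which gave 94 of the 52526 genes listed for each mouse. The mice were female nu/nu nude mice (Crl:NU-Foxn1 nu), which have no functional thymus. From after 8 weeks of age, subcutaneous osmotic pumps delivered for 16 weeks either BDE-47, a brominated flame retardant of the polybrominated diphenyl ether (PBDE) class, at 0.03 mg/kg/d in PEG300 with 1% DMSO (7 mice), or PEG300 with 1% DMSO alone (vehicle, 8 mice). RNA of the left 4th mammary tissue was sequenced from its 3′ ends, 1 library per mouse. The animals also served a study of xenografts, and because the labels do not say which of them carried one in the region, BDE-47 and the presence of a xenograft could not be modelled together. Values are log2(CPM), where CPM is a gene's read count scaled to the same number of mapped reads in every library, and every gene under 1 CPM is listed at 0. Because each transcript was read at its end, longer transcripts do not give more reads, and CPM levels were compared between genes directly.

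P450 enzymes are heme proteins that oxidise hydrophobic compounds with electrons passed on by P450 oxidoreductase (Por). Families Cyp1 to Cyp4 mostly handle foreign compounds and fatty acids, and the higher-numbered families mostly make or break down steroids, bile acids, vitamin D and retinoic acid. In liver, the aryl hydrocarbon receptor (AhR) induces Cyp1 genes, the constitutive androstane receptor (CAR) Cyp2b genes, and the pregnane X receptor (PXR) Cyp3a genes, and Cyp2c genes respond to CAR and PXR. Mammary tissue holds adipocytes, epithelium, stroma and often a lymph node, and only some P450 genes are known to be active in these cells.

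The AhR and its partner Arnt bind DNA at the core letters GCGTG, and the promoters of the 3 Cyp1 genes, the best known targets of this pair, are shown for that reason beside the promoter of Cyp2e1, the only P450 gene detected in every mouse. Each is the 250 bases before the transcription start, 5′ to 3′ on the strand of the gene, from RefSeq (GRCm38.p6). Capitals mark GCGTG, or its reverse complement CACGC, in the Cyp1 promoters, and the TATA box letters TATAAA in that of Cyp2e1.
Cyp1a1, chr9:57697363-57697612, plus strand: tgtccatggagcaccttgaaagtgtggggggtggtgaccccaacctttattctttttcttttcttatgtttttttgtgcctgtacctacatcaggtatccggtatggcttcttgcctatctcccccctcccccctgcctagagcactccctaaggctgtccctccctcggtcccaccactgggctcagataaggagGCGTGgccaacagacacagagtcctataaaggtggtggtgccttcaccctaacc
Cyp1a2, chr9:57683656-57683905, minus strand: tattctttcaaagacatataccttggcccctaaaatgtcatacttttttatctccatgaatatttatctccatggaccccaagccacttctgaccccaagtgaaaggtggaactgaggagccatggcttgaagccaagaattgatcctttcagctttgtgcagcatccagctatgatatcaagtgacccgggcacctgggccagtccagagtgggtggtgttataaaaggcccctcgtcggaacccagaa
Cyp1b1, chr17:79715062-79715311, minus strand: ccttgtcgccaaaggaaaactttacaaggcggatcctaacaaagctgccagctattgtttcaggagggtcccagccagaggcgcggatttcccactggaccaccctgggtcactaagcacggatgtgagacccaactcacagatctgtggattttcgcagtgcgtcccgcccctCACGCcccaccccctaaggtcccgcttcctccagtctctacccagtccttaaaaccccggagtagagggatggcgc
Cyp2e1, chr7:140763569-140763818, plus strand: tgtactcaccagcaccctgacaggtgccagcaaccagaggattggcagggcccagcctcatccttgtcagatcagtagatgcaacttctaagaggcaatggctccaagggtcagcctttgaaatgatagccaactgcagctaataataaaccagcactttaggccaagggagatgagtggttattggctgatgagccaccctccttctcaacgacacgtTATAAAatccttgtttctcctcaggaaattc
GCGTG stood 54 bases before the start of Cyp1a1 and 76 bases before that of Cyp1b1, and the 250 bases of Cyp1a2 held none. Searched on both strands, GCGTG was in 28.2% of all 32851 promoters, in 19.3% of 83 P450 promoters of 73 matched genes, and in 31.6% of the 19 promoters that belong to 18 of the P450 genes detected here. TATAAA was in 12.4%, 33.7% and 10.5% of the same sets. These letters describe the promoters and say nothing about which factor bound there.

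Depth was 10.06 to 19.58 M mapped reads per mouse, so the floor of 1 CPM stood for 10.06 to 19.58 reads. All mice had at least 7 of 8 adipocyte markers and at least 7 of 8 luminal epithelial markers above 0. In 3 libraries the tissue differed from the rest. Vehicle replicates 6 and 8 had all 8 B cell markers above 0, with summed B cell levels of 526.2 and 656.9 CPM against at most 4.051 CPM elsewhere, and their 8 adipocyte markers summed to 471 and 1167 CPM. In BDE-47 replicate 6 the 8 skeletal muscle markers summed to 94880 CPM, against 45.66 to 197.3 CPM in the other mice, and its adipocyte sum of 4035 CPM was the lowest of the other 13 mice. The 8 luminal epithelial markers were also low in these 3 libraries. They summed to 43.25 and 190.4 CPM in vehicle replicates 6 and 8 and to 167.4 CPM in BDE-47 replicate 6, against 774.3 CPM or more elsewhere. Of 8 hepatocyte markers, 0 to 2 were above 0 in any mouse, and Apoa1, Apoa2, Fga, Serpina1a and Tat were at 0 in all 15. Alb was above 0 in 7 mice, at up to 5.49 log2(CPM) in vehicle replicate 3, Fgb in 3 mice and Ahsg in 1. In bulk tissue, fewer cells of a type and less RNA per cell cannot be told apart.

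Most P450 genes were under 1 CPM. Of the 94 genes, 71 were at 0 in all 15 mice and 23 (24.5%) were above 0 in at least 1 mouse, against 31.1% of all genes. Cyp2e1 was the 1 gene above 0 in every mouse (4.91% of all genes were), and 13 (13.8%) were above 0 in 7 or more mice, against 18.1% of all genes. Of the 23, 17 were found in both groups. The other 6 were each above 0 in 1 mouse and so fell in 1 group by construction. The matching share over all genes was not computed. The liver-type groups were nearly silent. All 5 Cyp2b, all 4 Cyp2a and all 5 Cyp4a genes were at 0 throughout, as were 14 of 15 Cyp2c, 7 of 8 Cyp2d and 6 of 7 Cyp3a genes. The Cyp4f (3 of 9) and Cyp2j (2 of 8) subfamilies, whose enzymes oxidise fatty acids and their signalling products, had more than 1 detected gene.

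**Figure D1:**
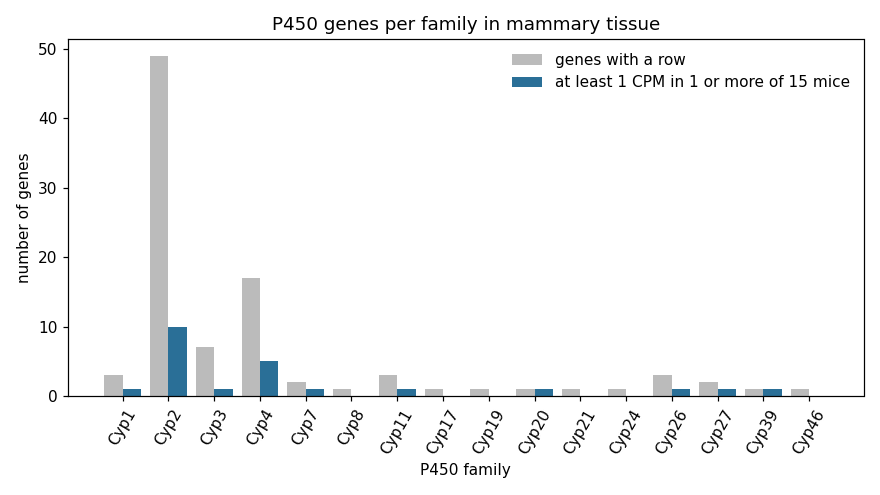
Number of P450 genes in each family (grey bars) and of those with at least 1 CPM in 1 or more of the 15 mice (blue bars), by family. Family Cyp2 had 49 genes with 10 detected and family Cyp4 had 17 with 5 detected, while no other family had more than 1 detected gene.

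The number of P450 genes above 0 was 7, 9.5 and 14 (lowest, median and highest) in vehicle mice and 7, 10 and 16 in BDE-47 mice. The highest numbers came from BDE-47 replicate 3 and vehicle replicate 1, the libraries with the most genes of any kind above 0 (12689 and 11490). The P450 genes summed to 112.3, 249.6 and 487.5 CPM with vehicle and to 63.19, 277.3 and 369.7 CPM with BDE-47, where the lowest sum was that of replicate 6, the muscle-rich library, and the next was 208.2 CPM. Cyp2e1 and Cyp4b1 made up 3 to 72.9% of that sum in vehicle mice and 32.9 to 57.4% in BDE-47 mice. Vehicle replicate 6 set the lower limit of 3%, the next vehicle mouse being at 36.7%, and the rest of the P450 signal was spread over genes that many mice lacked. Among the 13 genes found in 7 or more mice, 34.87% of the 195 values were at 0, against 20.68% for all 9511 genes that passed the same filter. Of these, 8 genes (Cyp2d22, Cyp2j6, Cyp3a57, Cyp4b1, Cyp4f16, Cyp4v3, Cyp20a1 and Cyp26b1) passed 30 CPM in some mouse, on 545 to 2651 reads, and were at 0 in at least 1 other mouse.

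**Figure D2:**
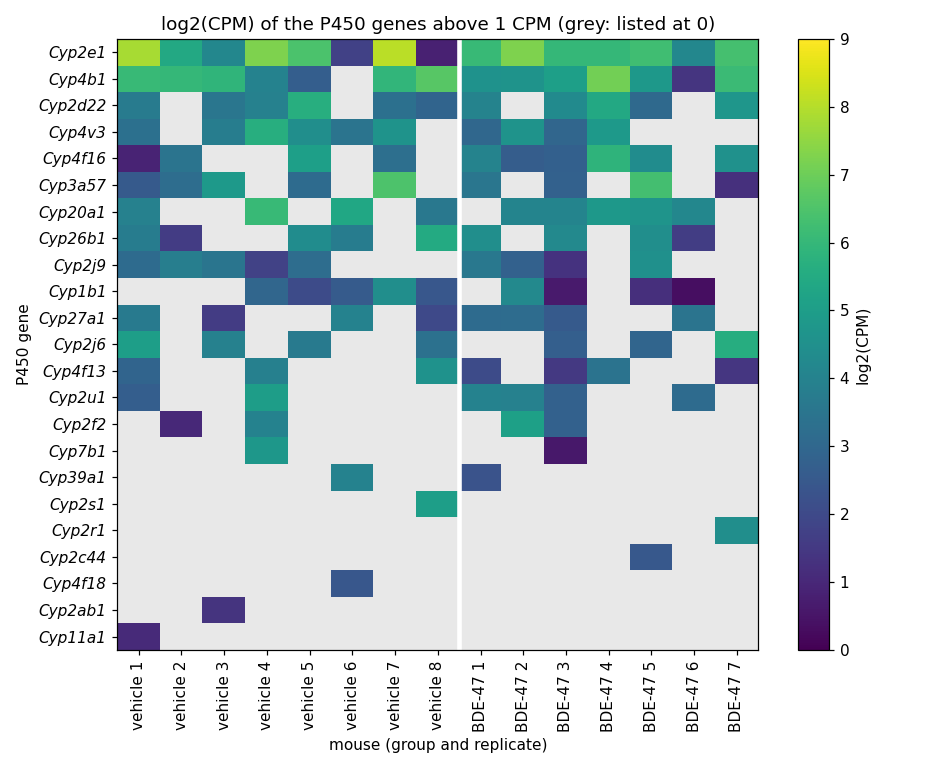
log2(CPM) of the 23 detected P450 genes (rows) in each mouse (columns, vehicle then BDE-47), with grey for values listed at 0. Cyp2e1 is coloured in all 15 columns and Cyp4b1 in 14, and the other genes show gaps in both groups.

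Cyp2e1, the ethanol-inducible P450 that also oxidises fatty acids and ketones (chr7:140763819-140774990, plus strand), had the highest mean level of the P450 genes and ranked 855 of 52526 genes by mean CPM. It was at 0.81, 5.95 and 8.08 log2(CPM) in vehicle mice and at 4.18, 6.05 and 7.27 in BDE-47 mice. The BDE-47 values lay inside the vehicle range, and the lowest values, 0.81 and 1.74, were those of vehicle replicates 8 and 6, the libraries with B cell markers and the lowest adipocyte sums. The group means were 5.22 ± 2.76 (SD, n = 8) and 6.01 ± 0.92 (SD, n = 7), a log2 difference of 0.79 (SE 0.79, 95% interval -0.79 to 2.38, limma adjusted p = 0.982). Without those vehicle mice the vehicle mean was 6.53 ± 1.51, its lowest value 4.16, and the difference -0.52 (exact permutation p = 0.453, two-sided), so the sign of the difference rested on them. The lowest BDE-47 value, 4.18, came from replicate 6, the muscle-rich library, while vehicle replicate 3, with the highest adipocyte sum (32390 CPM), was at 4.16. Vehicle replicates 6 and 8 and BDE-47 replicate 6 also had the lowest luminal epithelial sums. The part of adipocyte or epithelial content in this was not tested.

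**Figure D3:**
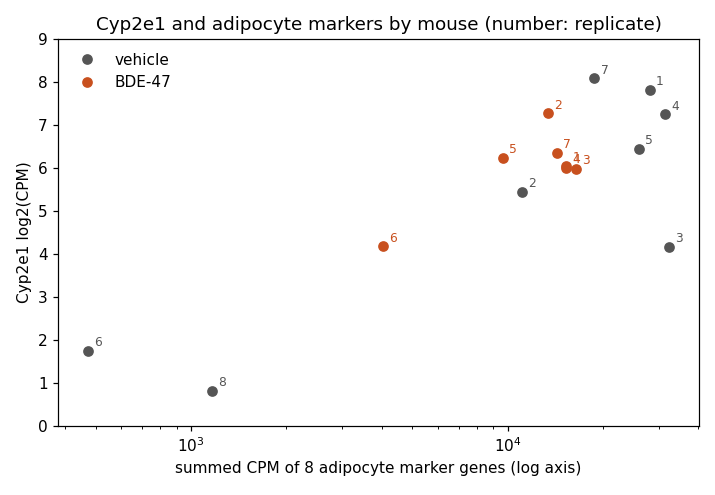
Cyp2e1 log2(CPM) against the summed CPM of 8 adipocyte marker genes (log axis), 1 point per mouse, numbered by replicate. Vehicle replicates 6 and 8, at 471 and 1167 CPM, have the lowest Cyp2e1 values (1.74 and 0.81), and BDE-47 replicate 6, at 4035 CPM, has the lowest of its group (4.18).

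Cyp4b1 (chr4:115624698-115647721, minus strand), a P450 active mainly outside the liver that acts on fatty acids and small protoxins, followed at rank 1949 by mean CPM. Vehicle mice were at 0, 5.91 and 6.65 log2(CPM) and BDE-47 mice at 1.38, 4.79 and 7.10. Of all 15 mice, vehicle replicate 6 alone was at 0, vehicle replicate 8 had the highest value of its group, and the ranges overlapped over most of their length. The log2 difference was 0.16 (SE 0.85, 95% interval -1.55 to 1.87, limma adjusted p = 0.996), and -0.28 without vehicle replicates 6 and 8.

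Whether BDE-47 changed the AhR, CAR and PXR target subfamilies was asked first of Cyp1. Cyp1a1 and Cyp1a2, the AhR targets that metabolise aromatic hydrocarbons and amines, were under 1 CPM in all 15 mice. Cyp1b1, the extrahepatic AhR target that hydroxylates estradiol (chr17:79706940-79715061, minus strand), was at 0, 2.26 and 4.45 log2(CPM) in vehicle mice and at 0, 0.35 and 4.24 in BDE-47 mice. It was above 0 in vehicle replicates 4 to 8 and in BDE-47 replicates 2, 3, 5 and 6, and in this last group replicate 2 stood far above the others, of which the next was at 1.20. The log2 difference was -0.89 (SE 0.86, 95% interval -2.62 to 0.84, limma adjusted p = 0.982, exact permutation p = 0.298), and -0.66 without vehicle replicates 6 and 8.

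Of the CAR and PXR subfamilies, no Cyp2b gene reached 1 CPM. Cyp2c44, an arachidonic acid epoxygenase, was the only Cyp2c gene detected, in BDE-47 replicate 5 at 2.49 log2(CPM), or 81 reads. Cyp3a57 (chr5:145345149-145390926, plus strand), a member of the subfamily that clears steroids and drugs, was the only Cyp3a gene detected, at 0, 2.85 and 6.47 log2(CPM) with vehicle and 0, 1.26 and 6.32 with BDE-47. Its values spanned the same range in both groups, with 5 of 8 vehicle and 4 of 7 BDE-47 mice above 0 and the highest values in vehicle replicate 7 and BDE-47 replicate 5. The log2 difference was -0.54 (SE 1.16, 95% interval -2.88 to 1.79, limma adjusted p = 0.994), -1.39 without vehicle replicates 6 and 8, and 0.02 without vehicle replicate 7. The last 300 bases of its transcript share a run of 43 bases with Cyp3a59, and how reads that match both were counted is not given in the sources used here.

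The receptors themselves were unevenly represented. Nr1i3 (CAR) and Nr1i2 (PXR) were at 0 in all 15 mice, while Rxra, the partner they share, was above 0 in all 15, with means of 5.70 ± 0.94 log2(CPM) in the vehicle group and 6.10 ± 0.67 in the BDE-47 group. Ahr was at 0, 3.20 and 5.99 log2(CPM) with vehicle and at 0, 3.95 and 5.62 with BDE-47, and was above 0 in 6 of 8 and 5 of 7 mice. Its log2 difference was -0.11 (SE 1.13, 95% interval -2.4 to 2.18), and that of Arnt was 0.55 (SE 1.12), with limma adjusted p-values of 1 and 0.994. Ahrr, a repressor that AhR induces, was above 0 in 1 BDE-47 mouse, at 1.29 log2(CPM). Tiparp, another AhR target, which modifies the receptor by ADP-ribosylation, was above 0 in 4 vehicle and 6 BDE-47 mice and differed by 1.03 on the log2 scale (SE 1.03, 95% interval -1.04 to 3.1, limma adjusted p = 0.982). Of 11 further targets of the 3 receptors, 5 were tested, 4 of them higher and 1 lower with BDE-47, beside 49.1% of all genes tested higher. Of these 5, 0 passed the adjusted threshold, against 0% of all genes. Among them Nqo1, a quinone reductase under AhR and NFE2L2 control, was at 1.07 ± 1.73 log2(CPM) in vehicle mice and 2.96 ± 2.20 in BDE-47 mice (log2 difference 1.89, SE 1.03, limma adjusted p = 0.982). Gstm1, a glutathione transferase, was at 5.93 ± 1.07 and 6.60 ± 0.62, and Abcb1a, a drug efflux pump, at 1.50 ± 1.84 and 0.65 ± 1.03, the 1 gene of the 5 that was lower with BDE-47.

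Steroid hormone synthesis was represented by 1 of its 6 P450 genes. Cyp11a1, the mitochondrial enzyme that starts steroid synthesis by cutting the cholesterol side chain, was above 0 in vehicle replicate 1 alone, at 1.06 log2(CPM), or 32 reads, and its transcript end shares 41 bases with the more abundant Cyp2e1. Cyp19a1 (aromatase), Cyp17a1, Cyp21a1, Cyp11b1 and Cyp11b2 were under 1 CPM in every mouse, as were the steroidogenic regulator Nr5a1 and the dehydrogenases Hsd3b1, Hsd3b6 and Hsd17b1. At these depths, their transcripts were not detectable above the floor. Those last 4 belong to a list of 17 genes of steroid handling, of which the other 13 were above 0 in at least 1 mouse. Among these 13, the dehydrogenases Hsd17b12 and Hsd11b1 were above 0 in all 15 mice.

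Among sterol enzymes, 3 of 6 genes were detected. Cyp27a1 (chr1:74713148-74737897, plus strand), the mitochondrial enzyme that hydroxylates the cholesterol side chain, was at 0, 0.80 and 3.99 log2(CPM) with vehicle and at 0, 2.56 and 3.48 with BDE-47. It was above 0 in 4 mice of each group and the groups overlapped (log2 difference 0.35, SE 0.91, 95% interval -1.49 to 2.2, limma adjusted p = 0.994). Cyp7b1 and Cyp39a1, which hydroxylate oxysterols, were each above 0 in 1 mouse of each group, at 4.77 and 0.59 log2(CPM) for Cyp7b1 (vehicle replicate 4 and BDE-47 replicate 3) and at 3.99 and 2.31 for Cyp39a1 (vehicle replicate 6 and BDE-47 replicate 1). Of the vitamin D enzymes, Cyp27b1 and Cyp24a1, which activate and inactivate the hormone, were under 1 CPM throughout, and Cyp2r1, which makes its precursor, was above 0 in BDE-47 replicate 7 alone, at 4.45.

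Cyp26b1 (chr6:84571414-84593908, minus strand) was the 1 detected gene of the 3 Cyp26 enzymes, which break down retinoic acid. It was at 0, 2.69 and 5.51 log2(CPM) in vehicle mice and at 0, 1.64 and 4.45 in BDE-47 mice. Vehicle replicate 8 had the highest value, 5 vehicle and 4 BDE-47 mice were above 0, and the groups overlapped. The log2 difference was -0.27 (SE 1.12, 95% interval -2.54 to 1.99, limma adjusted p = 0.994), and 0.48 without vehicle replicates 6 and 8. Its sign depended on vehicle replicate 8, but not on that mouse alone. Left out singly, vehicle replicate 8 gave 0.17, vehicle replicate 5 gave 0.01, and BDE-47 replicates 2, 4 and 7 each gave 0.08. Without vehicle replicate 6 alone the difference stayed negative, at -0.07.

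Cyp4f16 (chr17:32536545-32551798, plus strand), of the subfamily that hydroxylates leukotrienes and long-chain fatty acids, had the largest difference between the groups of the P450 genes with all 15 mice. Vehicle mice were at 0, 0.46 and 5.08 log2(CPM) and BDE-47 mice at 0, 4.04 and 5.85. Above 0 were 4 of 8 vehicle and 6 of 7 BDE-47 mice, the exception being replicate 6, the muscle-rich library, and the highest vehicle value exceeded 6 of the 7 BDE-47 values. The means were 1.60 ± 2.04 and 3.46 ± 1.88, a log2 difference of 1.86 (SE 1.1, 95% interval -0.36 to 4.08, limma adjusted p = 0.982, exact permutation p = 0.088). Without vehicle replicates 6 and 8, both at 0, the difference was 1.33 (exact permutation p = 0.25), smaller in size than those of Cyp20a1 (1.44), Cyp4v3 (-1.43) and Cyp3a57 (-1.39). Another gene of the Cyp4f subfamily, Cyp4f13 (chr17:32924688-32947415, minus strand), was at 0, 0 and 4.60 with vehicle and at 0, 1.41 and 3.42 with BDE-47, and differed by -0.23 (SE 0.86), with 59 bases of its transcript end shared with Cyp4f17.

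Cyp2u1 (chr3:131290491-131304157), another fatty acid hydroxylase, was above 0 in 2 of 8 vehicle and 4 of 7 BDE-47 mice, at 0, 0 and 5.02 log2(CPM) and 0, 2.81 and 3.99. The highest value was that of a vehicle mouse, replicate 4, and the difference of the means was 1.02 (exact permutation p = 0.308), too few mice being above 0 for limma. Cyp4v3 (chr8:45305801-45333163, minus strand), also a fatty acid hydroxylase, had the largest difference in the other direction with all 15 mice. It was at 0, 3.65 and 5.64 with vehicle and at 0, 2.97 and 4.87 with BDE-47, was above 0 in 6 of 8 and 4 of 7 mice, and differed by -0.96 (SE 1.13, 95% interval -3.23 to 1.32, limma adjusted p = 0.99).

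The epoxygenases Cyp2j6 and Cyp2j9, which act on arachidonic acid and lie side by side (chr4:96516138-96564305 and chr4:96568424-96592523, minus strand), were above 0 in 4 and 5 vehicle mice and in 3 and 4 BDE-47 mice. Cyp2j6 was at 0, 1.69 and 5.05 with vehicle and at 0, 0 and 5.59 with BDE-47, and Cyp2j9 at 0, 2.46 and 3.84 and at 0, 1.33 and 4.53. Both groups had mice at 0 for each gene, the highest value of each gene was that of a BDE-47 mouse, and the log2 differences were -0.40 (SE 1.05) and -0.18 (SE 0.99). Cyp2d22 (chr15:82370527-82380260), the only detected Cyp2d gene, was at 0, 3.44 and 5.65 with vehicle and at 0, 4.04 and 5.44 with BDE-47, above 0 in 11 of the 15 mice, with a log2 difference of 0.19 (SE 1.1). Its transcript end shares 105 bases with Cyp2d26, the longest such run among the detected P450 genes. Cyp20a1 (chr1:60343300-60388060, plus strand), whose substrate is not known, was at 0, 1.80 and 6.06 with vehicle and at 0, 4.07 and 4.79 with BDE-47. It was above 0 in 4 of 8 and 5 of 7 mice, the highest value being that of vehicle replicate 4, and differed by 0.74 (SE 1.18, 95% interval -1.64 to 3.11), or by 1.44 without vehicle replicates 6 and 8.

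**Figure D4:**
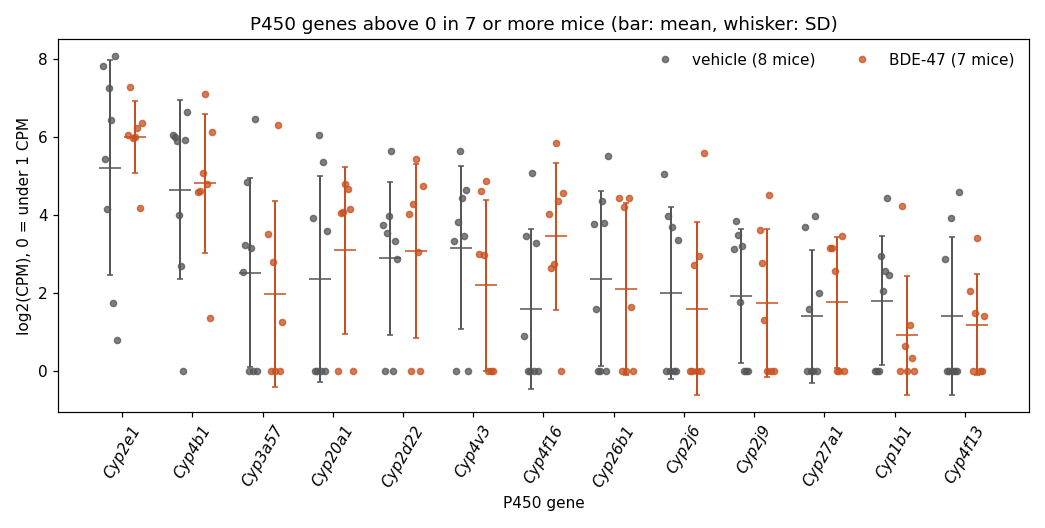
log2(CPM) in each of 8 vehicle (grey) and 7 BDE-47 mice (orange) for the 13 P450 genes above 0 in 7 or more mice, with the mean (bar) and SD (whisker). Points of the groups overlap for all 13 genes, and 12 of the genes have points at 0.

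The remaining detected genes were each above 0 in a few mice. Cyp2f2, a P450 of airway cells that activates naphthalene, was above 0 in vehicle replicates 2 and 4 (1.02 and 3.98 log2(CPM)) and BDE-47 replicates 2 and 3 (5.12 and 2.81). Cyp2s1, an epithelial P450 that responds to AhR, was above 0 in vehicle replicate 8 alone, at 5.04. Cyp4f18, a leukotriene hydroxylase of white blood cells, was above 0 in vehicle replicate 6 alone, at 2.43, and Cyp2ab1 in vehicle replicate 3 alone, at 1.35. The single mice with Cyp2s1 and Cyp4f18 were the ones in which all 8 B cell markers were above 0. The part of lymphoid tissue in these values was not tested.

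Across the 13 P450 genes that limma could test, 0 had an adjusted p under 0.05 (0% of all 9511 genes tested) and 0 had an unadjusted p under 0.05 (4.66% of all genes). With BDE-47, 6 were higher and 7 lower, while 49.1% of all genes were higher, and the median log2 difference was -0.18 (-0.017 for all genes). Without vehicle replicates 6 and 8 the split was 5 higher and 8 lower, and 46.6% of all genes were higher. The groups overlapped for 13 of 13 genes, as they did for 9510 of all 9511, so 0 P450 genes were without overlap against 0.0105% of all genes. Past 2-fold, without a test, 2 of the 23 detected genes (8.7%) were higher, Cyp4f16 and Cyp2u1, against 9.97% of all detected genes, and 0 were lower, against 10.5%. Without vehicle replicates 6 and 8 the genes past 2-fold were 2 higher, Cyp4f16 and Cyp20a1, and 2 lower, Cyp3a57 and Cyp4v3 (10% and 10.2% of all detected genes), so that of the first pair Cyp4f16 alone remained. The half-widths of the 95% intervals ran from 1.59 to 2.37 on the log2 scale, so each interval held differences of more than 2-fold in at least 1 direction.

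**Figure D5:**
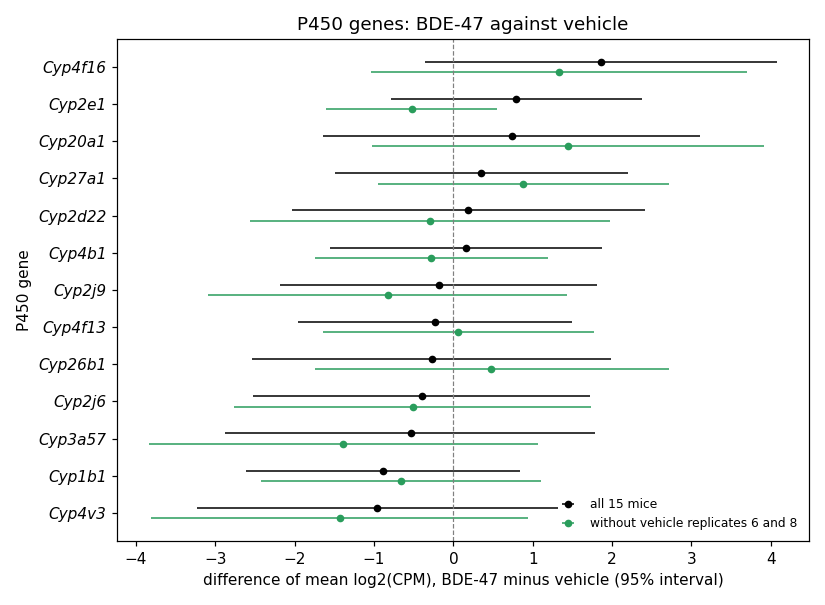
Difference of mean log2(CPM), BDE-47 minus vehicle, with its 95% limma interval, for the 13 P450 genes tested, with all 15 mice (black) and without vehicle replicates 6 and 8 (green). Every black interval spans 0, from Cyp4f16 (1.86) to Cyp4v3 (-0.96), and Cyp2e1, Cyp2d22, Cyp4b1, Cyp4f13 and Cyp26b1 lie on the other side of 0 in green.

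The genes that serve P450 enzymes were better represented than the P450 genes. Por, which passes electrons to the microsomal P450 enzymes, was above 0 in all 15 mice, at 0.74, 5.78 and 7.46 log2(CPM) with vehicle and at 4.20, 6.45 and 7.19 with BDE-47. As for Cyp2e1, the lowest values were those of vehicle replicates 8 and 6 (0.74 and 1.53) and the lowest of the BDE-47 group that of replicate 6. Its log2 difference was 1.05 (SE 0.76, 95% interval -0.48 to 2.58, limma adjusted p = 0.982), and -0.22 without those vehicle mice. All 6 electron donors were tested with limma, as were all 12 genes of heme synthesis and breakdown, and 0 of either passed, against 0% of all genes. With BDE-47, 2 electron donors were higher and 4 lower, and 6 heme genes were higher and 6 lower, beside 49.1% of all genes tested higher. Fdx1 and Fdxr, which supply the mitochondrial P450 enzymes, were at 5.01 ± 1.09 and 2.45 ± 2.06 with vehicle and at 3.81 ± 2.32 and 1.19 ± 1.54 with BDE-47. Their log2 differences were -1.2 (SE 0.82) and -1.27 (SE 1), each with a limma adjusted p of 0.982. Alas1, the rate-limiting enzyme of heme synthesis, was at 4.31 ± 1.28 and 4.71 ± 0.88, and Hmox1, which breaks heme down, at 3.35 ± 1.54 and 1.98 ± 2.06. The log2 differences of Alas1 and Hmox1 were 0.4 (SE 0.71) and -1.37 (SE 1.08), with limma adjusted p-values of 0.994 and 0.982.

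Of 14 genes of retinoid handling, 9 were tested, 7 of them higher and 2 lower with BDE-47, beside 49.1% of all genes tested higher. Of these 9, 0 passed the adjusted threshold, against 0% of all genes. Without vehicle replicates 6 and 8 the split was 4 higher and 5 lower, beside 46.6% of all genes higher. Aldh1a1 and Aldh1a3, which make retinoic acid, had log2 differences of 2.13 (SE 1.15) and 1.41 (SE 1.04), and by 1.53 and 0.59 without those vehicle mice. The retinoic acid receptors Rara and Rarg differed by -0.56 (SE 1) and -0.42 (SE 0.86), and the limma adjusted p of these genes was 0.982 to 0.994. Of 17 genes of steroid handling, 11 were tested, 5 higher and 6 lower, beside 49.1% of all genes tested higher. Of these 11, 0 passed, against 0% of all genes. Stard4, a cholesterol carrier, had the lowest p of all 72 supporting genes. Its levels were 3.16 ± 1.90 in vehicle mice and 0.60 ± 1.09 in BDE-47 mice. The groups differed by -2.55 on the log2 scale (SE 0.98, limma p = 0.0128, adjusted p = 0.982, exact permutation p = 0.0115). Leaving out vehicle replicates 6 and 8 gave a smaller difference, -1.99 (exact permutation p = 0.0443). The gene lists were chosen with earlier results of these data known. The unadjusted p-values of Stard4 are therefore not those of a gene picked beforehand. Over the 72 genes, 49 were tested, 27 higher and 22 lower, beside 49.1% of all genes higher. Without vehicle replicates 6 and 8 the split was 21 higher and 28 lower, beside 46.6%. Of the 49, 0 passed the adjusted threshold, against 0% of all genes. An unadjusted limma p under 0.05 was found for 2, Stard4 among them, against 4.66%. The choice of the lists limits this count in the same way.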

How the data were processed

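Mammary RNA of 15 mice was sequenced with QuantSeq 3′ FWD libraries. Per the deposited tables of the authors, each gene has a log2(CPM) value, in which genes under 1 CPM are at 0. The submitters' processing notes name STAR 2.5.3a and GRCm38, and the counting program and annotation are not given in the sources used here. Low CPM values are whole multiples of 1 read (100% within 0.02 reads), which gave the depth. Of 52636 entries per mouse, 110 with a repeated name were dropped, keeping the entry with the highest mean. Groups came from the treatment labels.

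Genes above 0 in at least 7 mice (9511) entered limma 3.58.1 in R 4.3.3 (moderated variances, prior trend on the mean) on the deposited log2 values, with Benjamini-Hochberg adjustment over all of them. Single genes were also tested with a two-sided exact permutation test over all 6435 choices of mice (smallest possible p 0.000155). Python 3.11.15 with numpy 2.4.6, pandas 2.3.3 and matplotlib 3.10.9 was used for the rest. A fold change on this scale can understate that of genes near the floor. It can also exceed the ratio of mean CPM, by which Cyp2u1 was not past 2-fold. The limma fit alone was tested, on values resampled from these mice with a shift added to some genes.

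The members and gene lists were chosen with earlier results of these data known. The text names P450 genes above 0 in 7 mice or past 2-fold, detected members of the AhR, CAR, PXR, steroid, bile acid, vitamin D and retinoid families, and a list of receptors and partners with genes of unadjusted p under 0.05, of which 1 is not reported here. Other P450 genes were named because few mice expressed them, and Nqo1, Gstm1, Abcb1a, Fdx1, Fdxr, Aldh1a1, Aldh1a3, Rara, Rarg and Cyp51 after their values were seen. Promoters and coordinates are RefSeq GRCm38.p6, and shared transcript ends were searched over the last 300 bases of GENCODE M39 transcripts. The alternatives were a pseudocount of 1 or 0.1, no filter or genes above 0 in every mouse, median-of-ratios size factors, genes detected as a covariate, mice left out, the replicate number as a block, and, for counts, other detection thresholds or ratios of mean CPM. Leaving out the muscle-rich mouse was chosen after seeing the data. Intervals cover the spread between mice. The xenograft covariate of the study is not in the labels and was not used.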

Additional observations from a re-analysis of the deposited data

Results flagged for a closer look

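In 14 of 58 groups of mice, the highest or lowest value stood apart from the rest of its group by Dixon's criterion at the 95% level, which chance alone exceeds in about 5% of groups of normally distributed values. A group with a single mouse above 0 meets the criterion by construction, so that rate does not apply to 10 of the 14 groups. Of these 14, 11 come from genes that were at 0 in every other mouse of the group or in all but a single one. In vehicle mice these were Cyp2ab1 in replicate 3 (1.35 log2(CPM)), Cyp2f2 in replicate 4 (3.98), Cyp2s1 in replicate 8 (5.04), Cyp4f18 in replicate 6 (2.43), Cyp7b1 in replicate 4 (4.77), Cyp11a1 in replicate 1 (1.06) and Cyp39a1 in replicate 6 (3.99). In BDE-47 mice they were Cyp2c44 in replicate 5 (2.49), Cyp2r1 in replicate 7 (4.45), Cyp7b1 in replicate 3 (0.59) and Cyp39a1 in replicate 1 (2.31). The others were Cyp1b1 in BDE-47 replicate 2 (4.24, the next at 1.20), Cyp2e1 in BDE-47 replicate 6 (4.18, the muscle-rich library) and Hmox1 in vehicle replicate 1, which was at 0 while the other 7 vehicle mice were above 0.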

How the results depend on the processing

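The count of P450 genes with a limma adjusted p under 0.05 was 0 under each alternative. The count with an unadjusted p under 0.05 was 0, and 0 to 1 when each mouse was left out in turn (1 without vehicle replicate 5 or BDE-47 replicate 6). The count past 2-fold, 2, became 7 with log2(CPM + 0.1) and 5 with the ratio of mean CPM. It was 4 without the mice with all 8 B cell markers above 0 (vehicle replicates 6 and 8), and 4 when BDE-47 replicate 6 was left out as well (added after seeing the data). When each mouse was left out it was 1 to 4 (1 without vehicle replicate 5, and 4 without vehicle replicate 1, vehicle replicate 4 or BDE-47 replicate 7). Cyp4f16 was past 2-fold in each of these settings and Cyp2u1 in some of them. The 23 detected genes became 13 with at least 7 mice above 0, and 22 to 23 when each mouse was left out. Of the 13 tested P450 genes, 5 kept their direction in every setting (Cyp1b1, Cyp4f16, Cyp4v3, Cyp20a1 and Cyp27a1). Without vehicle replicates 6 and 8 the log2 differences of Cyp2d22 (-0.29), Cyp2e1 (-0.52), Cyp4b1 (-0.28), Cyp4f13 (0.06), Cyp26b1 (0.48), Arnt (-0.06) and Por (-0.22) changed sign, and without BDE-47 replicate 6 too, those of Cyp2e1 (-0.22), Cyp4f13 (0.26) and Cyp26b1 (0.56) did. Cyp4f13 was also reversed with log2(CPM + 0.1), at 0.44. The cause was not tested. Leaving out single mice, the differences ran from -0.22 to 0.7 for Cyp2d22, -1.06 to 0.03 for Cyp2j6, -0.65 to 0.11 for Cyp2j9, -1.27 to 0.02 for Cyp3a57, -0.5 to 0.73 for Cyp4b1, -0.6 to 0.22 for Cyp4f13, -0.66 to 0.17 for Cyp26b1 and -0.56 to 0.37 for Ahr. Of those that kept their sign, the ranges were -1.44 to -0.52 for Cyp1b1, 0.16 to 1.2 for Cyp2e1, 1.46 to 2.44 for Cyp4f16, -1.41 to -0.59 for Cyp4v3, 0.4 to 1.27 for Cyp20a1, 0.69 to 1.6 for Cyp2u1 and 0.07 to 0.72 for Cyp27a1, which was also at 0.07 with genes detected as a covariate. With the replicate block, 0 P450 genes passed, and Cyp4f13 (0.22) and Cyp26b1 (0.17) changed sign. Same-numbered mice did not deviate together (correlations of -0.018 to 0.053 over 7 pairs, 3 of 7 vehicle mice correlating best with their own number), so the numbers were taken as names. Depth limits detection to 10.06 to 19.58 reads, and 8 P450 genes with 545 or more reads in a mouse were at 0 in another.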

Other observations

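Outside the name pattern, 26 further P450 names had a row, 20 of them pseudogenes by name, and Cyp51, the sterol demethylase of cholesterol synthesis, was the 1 of the other 6 above 0 in any mouse. The pseudogenes were at 0 throughout. Cyp51 was above 0 in 14 of 15 mice, at 0, 4.27 and 5.12 log2(CPM) in vehicle mice (lowest, median and highest) and at 2.52, 4.6 and 5.57 in BDE-47 mice. Its means were 3.78 ± 1.6 (SD, n = 8) and 4.44 ± 1.09 (SD, n = 7), a log2 difference of 0.65 (SE 0.82, limma adjusted p = 0.993), and the groups overlapped. It was thus detected in more mice than any P450 gene of the pattern other than Cyp2e1 and Cyp4b1, the latter also above 0 in 14 mice.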
